A study of Mus musculus with 11 samples.

Results

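The genes described here are 44 mouse genes that build ribosomes in the nucleolus, chosen by symbol and matched to the Ensembl identifiers of a gene count table that lists 51912 genes. All 44 were found, and all 44 were among the 15703 genes with enough counts to be tested. One of them, Wdr74, passed the filter on low counts only through the groups with mutant CEBPA, so its differences from CSF3R-only are given as a description and calls against CSF3R-only are counted over the other 43. RNA-seq counts cover 11 samples of lineage-negative bone marrow cells of C57BL/6 mice, sorted as positive for GFP and RFP and grown for 48 h in medium with serum, with no added cytokine, in the presence of 4-hydroxytamoxifen. Every cell of every group was meant to carry 2 retroviral vectors, one that is always on and marked by GFP and one marked by RFP that a tamoxifen-activated Cre recombinase, expressed by the marrow cells from the Rosa26 locus, turns on during the culture. In CSF3R-only cells (n = 4), the constitutive vector carried CSF3R T618I, an activated form of the granulocyte colony-stimulating factor receptor, and the inducible vector was empty. In CSF3R-first cells (n = 3), CSF3R T618I was constitutive and CEBPA V314VW, a C-terminal mutant of the myeloid transcription factor CEBPA, was turned on in culture. In CEBPA-first cells (n = 4), CEBPA V314VW was constitutive and CSF3R T618I was turned on in culture. All 3 groups therefore carried CSF3R T618I and received 4-hydroxytamoxifen, and no group carried mutant CEBPA alone. The comparisons ask how ribosome biogenesis genes differed with the presence of mutant CEBPA and with the order in which the mutant genes were turned on. The labels do not say whether replicates came from separate animals or transductions, so p-values measure only the spread between these samples, which may be technical.

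A ribosome is assembled from ribosomal RNA and ribosomal proteins in the nucleolus. RNA polymerase I copies the ribosomal RNA genes into a long precursor, small nucleolar ribonucleoproteins (snoRNPs) modify it at many sites, and assembly factors fold, cut and export the particles that become the small and the large subunit. Dividing blood progenitors need many ribosomes, and MYC is known to raise the transcription of many genes of this machinery, through the DNA sequence CACGTG among others. Maturing granulocytes are known to shut much of it down.

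Because the members moved together, the sequence around their transcription starts was examined. A 300-base window (250 bases before to 50 after the start, RefSeq, GRCm38.p6) was at hand for 38 members; Tcof1, Rrp12, Npm1, Bop1, Rrs1 and Fbl had no entry. CACGTG, which reads the same on both strands, was present in 7 of the 38 (18.4%), against 11.3% of the 10936 tested genes with an entry and 8.09% of all 27025 genes with one. All 7 of the members' matches lay within the 150 bases before to 50 after the start, a window that held CACGTG in 8.86% of tested genes. The stretches of 30 bases that hold the match are shown 5′ to 3′ in the direction of the gene, with CACGTG in capitals, for these 7 genes, which form the subset of members with the motif.
Nop2: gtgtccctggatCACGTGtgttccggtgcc
Grwd1: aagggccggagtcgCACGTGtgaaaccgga
Pes1: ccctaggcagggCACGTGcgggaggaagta
Wdr43: cgcccgggcgaaCACGTGgctgccgcggag
Utp20: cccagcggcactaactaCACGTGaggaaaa
Pno1: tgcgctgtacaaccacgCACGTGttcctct
Ltv1: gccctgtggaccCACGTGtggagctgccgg
The stretches lie at chr6:125131811-125131840 (plus strand) for Nop2, chr7:45830740-45830769 (minus) for Grwd1, chr11:3963965-3963994 (plus) for Pes1, chr17:71616220-71616249 (plus) for Wdr43, chr10:88826765-88826794 (minus) for Utp20, chr11:17211540-17211569 (minus) for Pno1 and chr10:13193092-13193121 (minus) for Ltv1. Counted with the first transcribed base as 1, the motif began at -60 in Nop2 and at 35, 3, 18, 38, 38 and 29 in Grwd1, Pes1, Wdr43, Utp20, Pno1 and Ltv1, so that 6 of the 7 matches lay just downstream of the start.

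Nop2, which encodes an RNA methyltransferase of the large subunit pathway, is the one member whose CACGTG lies upstream of the start. Its 250 bases before the start (chr6:125131633-125131882, plus strand) are shown with the motif in capitals.
Nop2 upstream: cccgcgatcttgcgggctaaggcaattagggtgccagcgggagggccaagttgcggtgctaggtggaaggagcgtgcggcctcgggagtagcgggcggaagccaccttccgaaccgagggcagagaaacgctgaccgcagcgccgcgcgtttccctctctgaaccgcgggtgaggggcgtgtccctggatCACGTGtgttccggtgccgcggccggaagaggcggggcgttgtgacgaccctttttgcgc
Of other motifs, searched on both strands, CTTCCG (the core bound by ETS factors) was in 19 of 38 members (50%) and 33.5% of tested genes, CCAAT was in 16 (42.1%) and 42.6%, and TTGCNNAA (a C/EBP-type sequence) was in 3 (7.89%) and 10.5%. A gene with several start sites was counted once if any of its windows held the motif. The members' median GC content in these windows was 58.7%, against 60.3% over the tested genes. These matches are a description of the sequence and say nothing about binding.

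Libraries held 47905747 to 72268346 counts. Markers of other blood cells that these marrow samples could hold went in several directions. Neutrophil maturation genes summed to 27799 to 34177 CPM (normalised read count, scaled to library size with TMM factors) in CSF3R-only samples, 14938 to 26064 among the CSF3R-first and 6546.5 to 8723 among the CEBPA-first samples, and all 16 were called lower in CEBPA-first against CSF3R-only. Megakaryocyte genes fell in the same order, with all 8 called lower, from 1168 to 1538 CPM in CSF3R-only to 126 to 172 CPM in CEBPA-first. Monocyte and macrophage sums overlapped between the groups (5535 to 6104 CPM in CSF3R-only samples, 4070 to 6623 CPM in CSF3R-first samples and 4032 to 5850 CPM in CEBPA-first samples), with 2 of 10 genes called higher and 7 lower in CEBPA-first against CSF3R-only. F13a1 alone averaged 2577 CPM in CSF3R-only and 4007 CPM in CEBPA-first, while Csf1r averaged 1125.5 and 223 CPM. Erythroid sums also overlapped (517.5 to 734, 387 to 812 and 463 to 574.5 CPM), with 1 of 10 higher and 8 lower. The erythroid sum included Tfrc at a mean of 271 CPM in CSF3R-only and 453 CPM in CEBPA-first, while Hba-a1 went from 63.0 to 2.17 CPM. Mast cell and basophil sums were 2132 to 3112, 1329 to 1618.5 and 1404 to 1833 CPM, with 2 of 8 higher and 3 lower, and of 11 stem and progenitor genes 7 were higher and 4 lower. B cell markers summed to 3.71 to 4.55, 3.40 to 4.36 and 5.91 to 6.98 CPM, of which Cd79b held a mean of 3.42, 3.40 and 6.06 CPM, and T and NK cell markers to at most 0.883 CPM in any sample, with Cd3e, Cd8a and Ncr1 at 0 in all 11. The part of these cells in the members' levels was not tested. The libraries are bulk samples, so a change in the share of a cell type and a change in RNA per cell cannot be told apart.

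The chosen ribosome biogenesis genes were higher in CEBPA-first cells than in CSF3R-only cells. These groups differ in mutant CEBPA and also in whether CSF3R T618I was constitutive or turned on in culture. The parts of these differences cannot be told apart. Apart from Wdr74, all 43 members rose (edgeR quasi-likelihood test, Benjamini-Hochberg adjusted p under 0.05 over all tested genes), with a median log2 fold change of 1.13 and a range of 0.46 to 1.53. Over all tested genes, 35.4% were called higher and 36.6% lower in this comparison, with a median log2 fold change of 0.00. For these 43, every CEBPA-first sample was above every CSF3R-only sample, as was the case for 34.2% of tested genes. A log2 fold change over 1 together with the adjusted p was reached by 30 of the 43 and by 8.07% of tested genes. The members together held 0.315% to 0.413% of all counts in CSF3R-only samples, 0.451%, 0.713% and 0.623% in CSF3R-first samples A, B and C, and 0.839% to 0.989% in CEBPA-first samples. Each role contributed. The summed level of the 14 small subunit factors was 681.5 to 812 CPM in CSF3R-only, 884 to 1278 CPM in CSF3R-first and 1477 to 1821.5 CPM in CEBPA-first samples, and that of the 14 large subunit factors was 789 to 974 CPM, 1030.5 to 1427 CPM and 1623 to 1859 CPM. The 7 members with CACGTG near the start had log2 fold changes of 0.82 (Pes1) to 1.53 (Utp20) in this comparison.

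**Figure D1:**
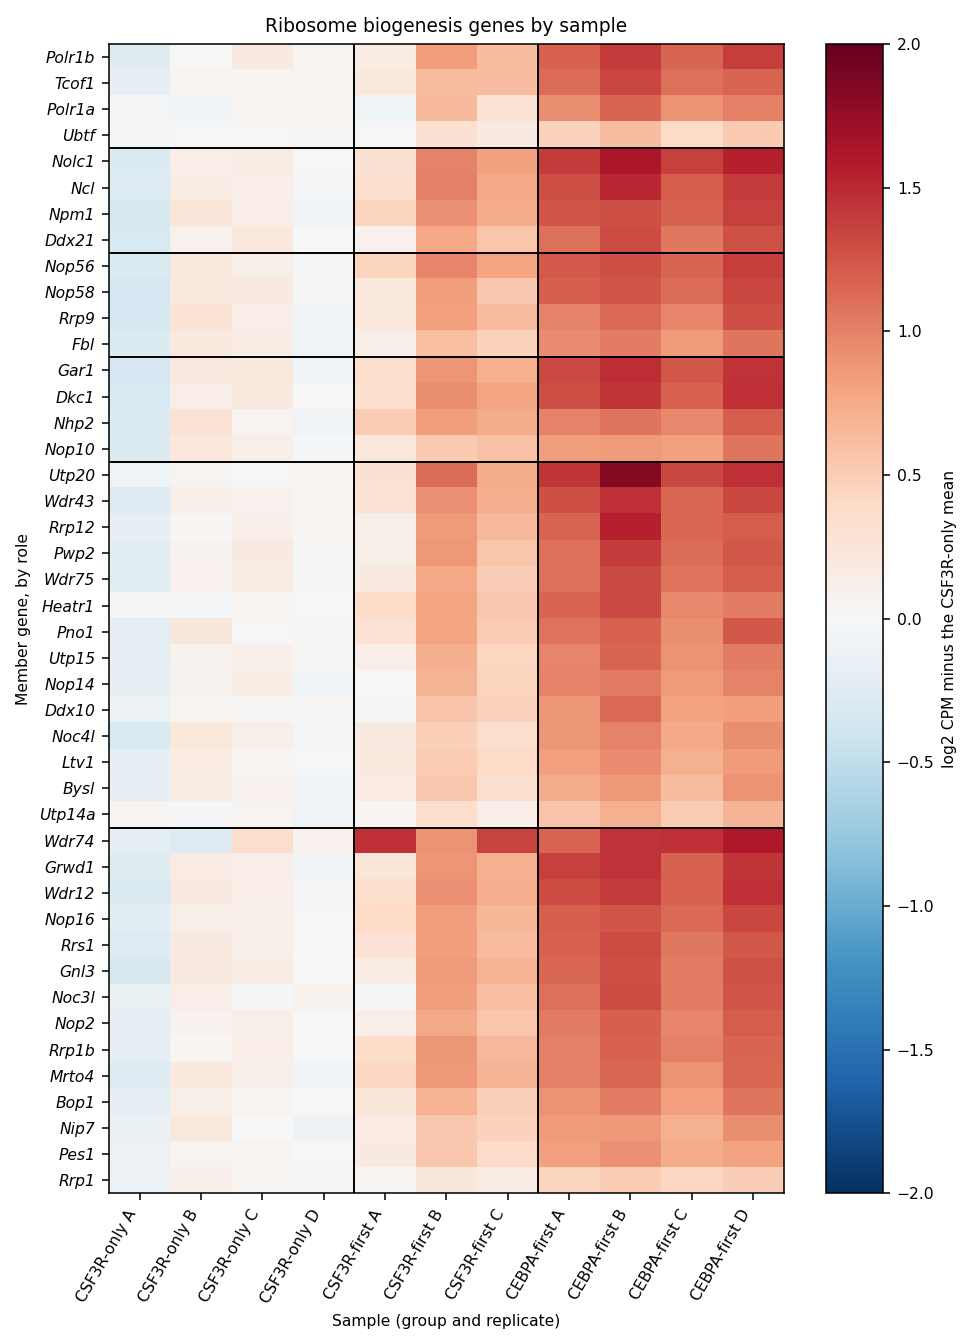
Heat map of the 44 member genes (rows, grouped by role and ordered within a role by their change) in the 11 samples (columns, by group and replicate). Colour gives log2 CPM minus the mean of the 4 CSF3R-only samples, and the 4 CEBPA-first columns are red for every gene, while CSF3R-first replicate A is the palest of its group.

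The groups with both mutant genes also differed. Which vector carried each gene, and so how long each was expressed, changes together with the order, and these cannot be told apart. Between CEBPA-first and CSF3R-first cells, which both carry the 2 mutant genes, 43 of 44 members were called higher in CEBPA-first (24.0% of tested genes were called higher and 24.3% lower), with a median log2 fold change of 0.57 and a range of 0.19 to 0.77. The exception was Wdr74. The other 43 members had no overlap between the groups' samples, against 27.4% of tested genes with all CEBPA-first samples above. None reached a log2 fold change of 1, which 2.57% of tested genes passed. The largest differences between these groups were those of Utp20 (0.77 ± 0.16), Nolc1 (0.76 ± 0.15), Polr1b (0.73 ± 0.14), Grwd1 (0.72 ± 0.14) and Rrp12 (0.70 ± 0.15), and the smallest called ones were those of Rrp1 (0.33 ± 0.07), Ubtf (0.34 ± 0.08), Nhp2 (0.36 ± 0.12) and Mrto4 (0.38 ± 0.12). Ubtf, Polr1a, Polr1b and Tcof1, the 4 members for ribosomal RNA gene transcription, had a median log2 fold change of 0.69 in this comparison. Between CSF3R-first and CSF3R-only their median was 0.40. For the box H/ACA proteins the medians were 0.55 and 0.67, and for 12 RNA polymerase I genes outside the 44 they were 0.30 and 0.34. The difference between these contrasts is the midpoint test, which called no member.

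Mutant CEBPA turned on second also went with a rise. In CSF3R-first against CSF3R-only cells, 39 of the 43 members other than Wdr74 were called higher (21.6% of tested genes were called higher and 21.1% lower), with a median log2 fold change of 0.54 and a range of 0.14 to 0.76. Ubtf, Polr1a, Utp14a and Rrp1 were not called (edgeR adjusted p = 0.10, 0.070, 0.094 and 0.12). Groups did not overlap for 28 of the 43, against 20.7% of tested genes with all CSF3R-first samples above. A log2 fold change over 1 was passed by 0 of the 43 and by 2.13% of tested genes. This comparison leaned on single samples. Of the 43, all were called without CSF3R-first replicate A, and 26 without replicate B.

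**Figure D2:**
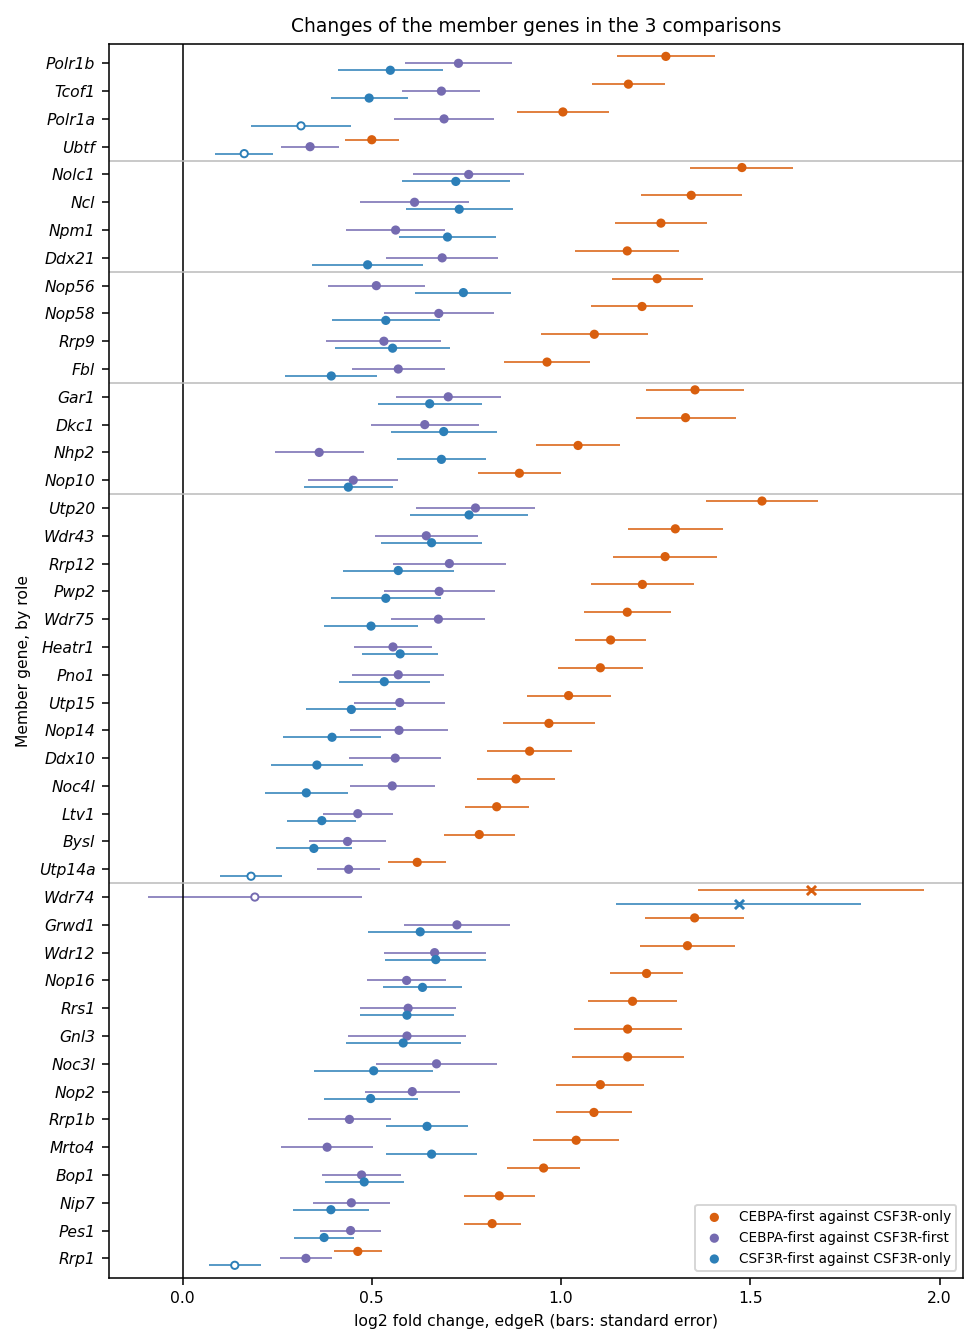
log2 fold change of each member gene (edgeR, bars show the standard error) by role, for CEBPA-first over CSF3R-only in orange, CEBPA-first over CSF3R-first in purple and CSF3R-first over CSF3R-only in blue. Filled points passed an adjusted p of 0.05, open points did not, and crosses mark the differences of Wdr74 from CSF3R-only, which carry no test; the open points are Wdr74 in purple and Polr1a, Ubtf, Utp14a and Rrp1 in blue.

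The CSF3R-first mean lay between the other means for all 43 members other than Wdr74, against 37.1% of tested genes whose means rose in the same order. For 28 of the 43, every CSF3R-first sample was above all of CSF3R-only and below all of CEBPA-first, as was so for 14.2% of tested genes. A scale that is 0 for CSF3R-only and 1 for CEBPA-first was made from the fitted log2 fold changes. Over all 44, Wdr74 included as a description, the median position of CSF3R-first was 0.466. Positions ran from 0.292 for Utp14a, 0.297 for Rrp1, 0.312 for Polr1a and 0.327 for Ubtf to 0.632 for Mrto4, 0.655 for Nhp2 and 0.885 for Wdr74, and 30 members were below 0.5. A test of CSF3R-first against the midpoint of the other groups called 0 of the 43 members other than Wdr74 (edgeR), where 2.59% of tested genes were called above and 0.962% below the midpoint. Without adjustment for multiple tests, 0 of the 43 passed 0.05, against 15.5% of tested genes, and DESeq2 also called 0. Without CSF3R-first replicate B, 1 member was called, Polr1a, below the midpoint (log2 difference -0.39, edgeR adjusted p = 0.050).

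The CSF3R-first samples were spread widely. Replicate A was the lowest of its group for 43 members and replicate B the highest for 42. Set against the CSF3R-only mean, the median member was at a log2 ratio of 0.20 in replicate A, 0.81 in replicate B and 0.58 in replicate C. The 15 members that overlapped with CSF3R-only did so through replicate A alone. Replicate A also had the highest neutrophil sum of its group (26064 CPM, against 14938 and 17974 in replicates B and C). In CSF3R-only, replicate A was the lowest for 41 members (median log2 ratio -0.23) and had the highest neutrophil sum (34177 CPM). In CEBPA-first, replicate C was the lowest for 42 members and had the highest neutrophil sum (8723 CPM). Whether neutrophil RNA has a part in the members' levels was not tested.

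**Figure D3:**
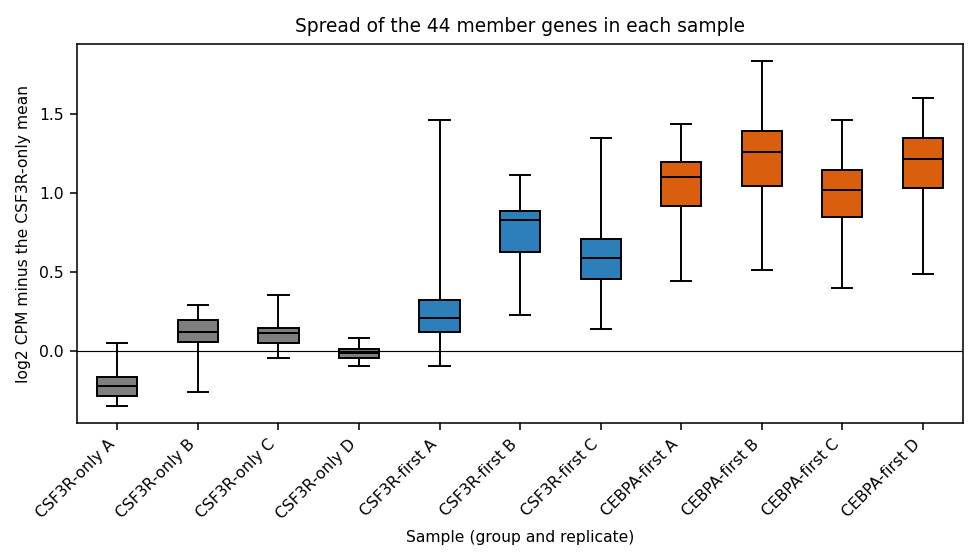
Spread of the 44 member genes in each sample, as log2 CPM minus the CSF3R-only mean of each gene (line: median, box: quartiles, whiskers: lowest and highest gene). The box of CSF3R-first replicate A lies near those of CSF3R-only, and the CEBPA-first medians are all above 1.

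The RNA polymerase I group held Polr1a and Polr1b, the largest subunits of the enzyme, Ubtf, which keeps active ribosomal RNA genes open, and Tcof1, the treacle protein of the nucleolus. All 4 rose in CEBPA-first against CSF3R-only. Polr1b (chr2:129100995-129126594, plus strand, GRCm38) changed most. Its level was 36.0, 42.9, 48.5 and 44.5 CPM in CSF3R-only samples A to D, 47.3, 76.0 and 65.3 CPM in CSF3R-first samples A to C, and 96.9, 112, 95.9 and 111.5 CPM in CEBPA-first samples A to D. Only CSF3R-first A reached into the CSF3R-only range, and all CEBPA-first samples stood above the rest. The log2 fold change of Polr1b was 1.28 ± 0.13 (SE) in CEBPA-first against CSF3R-only (edgeR adjusted p = 1.7e-06), 0.73 ± 0.14 against CSF3R-first (adjusted p = 0.0013) and 0.55 ± 0.14 in CSF3R-first against CSF3R-only (adjusted p = 0.0072).

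Ubtf (chr11:102304560-102319742, minus strand) changed least of its group. It was at 152, 158, 157 and 160.0 CPM in CSF3R-only, 156, 193 and 178 CPM in CSF3R-first and 215, 239, 207 and 226 CPM in CEBPA-first samples. The CSF3R-only samples were tight (157 ± 3.31 CPM, SD, n = 4) and CSF3R-first A lay among them. The log2 fold change was 0.50 ± 0.07 against CSF3R-only (edgeR adjusted p = 2.8e-05) and 0.34 ± 0.08 against CSF3R-first (adjusted p = 0.0034). In CSF3R-first against CSF3R-only it was 0.16 ± 0.08, which did not pass (adjusted p = 0.10), and it passed without CSF3R-first A (0.24, adjusted p = 0.012). Polr1a gave 0.31 ± 0.13 in that comparison, and 1.18 ± 0.10 was measured for Tcof1 in CEBPA-first against CSF3R-only.

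Of the abundant nucleolar proteins, Npm1 and Ncl were among the members with the highest levels, while Ddx21 lay below several members of other roles. Per kilobase of exon, Npm1 was at 363, 245.7 and 151 CPM in CEBPA-first, CSF3R-first and CSF3R-only and Ncl at 182, 119 and 71.6 CPM, the first and the second of the 44 in CEBPA-first. In CSF3R-first and CSF3R-only, Nhp2 (120.2 and 74.8 CPM per kilobase) lay above Ncl. Ddx21 was at 40.5 CPM per kilobase in CEBPA-first. Ncl encodes nucleolin, which binds ribosomal RNA and its genes. It lies at chr1:86344719-86359400 (minus strand), with 3 small nucleolar RNA genes inside it, among them Snora75 and Snord82. Ncl was at 608, 805, 796 and 708.5 CPM in CSF3R-only, 926, 1460.5 and 1246 CPM in CSF3R-first and 1774, 2050, 1677 and 1908 CPM in CEBPA-first samples. The 3 groups did not overlap. Its log2 fold change was 1.34 ± 0.13 in CEBPA-first against CSF3R-only (edgeR adjusted p = 1.3e-06), 0.61 ± 0.14 against CSF3R-first (adjusted p = 0.0040) and 0.73 ± 0.14 in CSF3R-first against CSF3R-only (adjusted p = 0.0016).

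Npm1 (chr11:33152287-33163206, minus strand) encodes nucleophosmin, a chaperone of ribosome assembly that is itself often mutated in acute myeloid leukemia. It was at 321, 470.2, 436 and 385 CPM in CSF3R-only, 542, 755 and 667 CPM in CSF3R-first and 958, 975, 903 and 1034 CPM in CEBPA-first samples, again with no overlap. The log2 fold change of CEBPA-first was 1.26 ± 0.12 over CSF3R-only and 0.56 ± 0.13 over CSF3R-first, and that of CSF3R-first over CSF3R-only was 0.70 ± 0.13 (edgeR adjusted p = 1.0e-06, 0.0039 and 0.0012). Over 53.8% of its transcript Npm1 has near-identical copies in other genes (at least 100 bp at 97% identity), and how reads of such copies were counted is not stated, so its level is less certain.

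Nolc1 and Ddx21 set the range of this group. Nolc1 (chr19:46075863-46085530, plus strand), a chaperone of snoRNPs, was at 101, 133, 137 and 121 CPM in CSF3R-only, 152, 242 and 215 CPM in CSF3R-first and 321, 375, 313.8 and 361 CPM in CEBPA-first samples. No samples overlapped between groups, and the CEBPA-first mean was 2.79-fold that of CSF3R-only in the fit (log2 fold change 1.48 ± 0.14, edgeR adjusted p = 7.0e-07). Ddx21 (chr10:62580251-62602281, minus strand), an RNA helicase of the nucleolus, was at 74.6, 98.1, 106 and 92.1 CPM in CSF3R-only, 98.0, 157.5 and 135 CPM in CSF3R-first and 197, 228, 191 and 222 CPM in CEBPA-first samples. CSF3R-first A lay inside the CSF3R-only range. Ddx21 rose by a log2 fold change of 1.18 ± 0.14 against CSF3R-only (edgeR adjusted p = 5.3e-06), and the change between CSF3R-first and CSF3R-only (0.49 ± 0.15, adjusted p = 0.017) was not called without CSF3R-first B (0.33, adjusted p = 0.11).

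**Figure D4:**
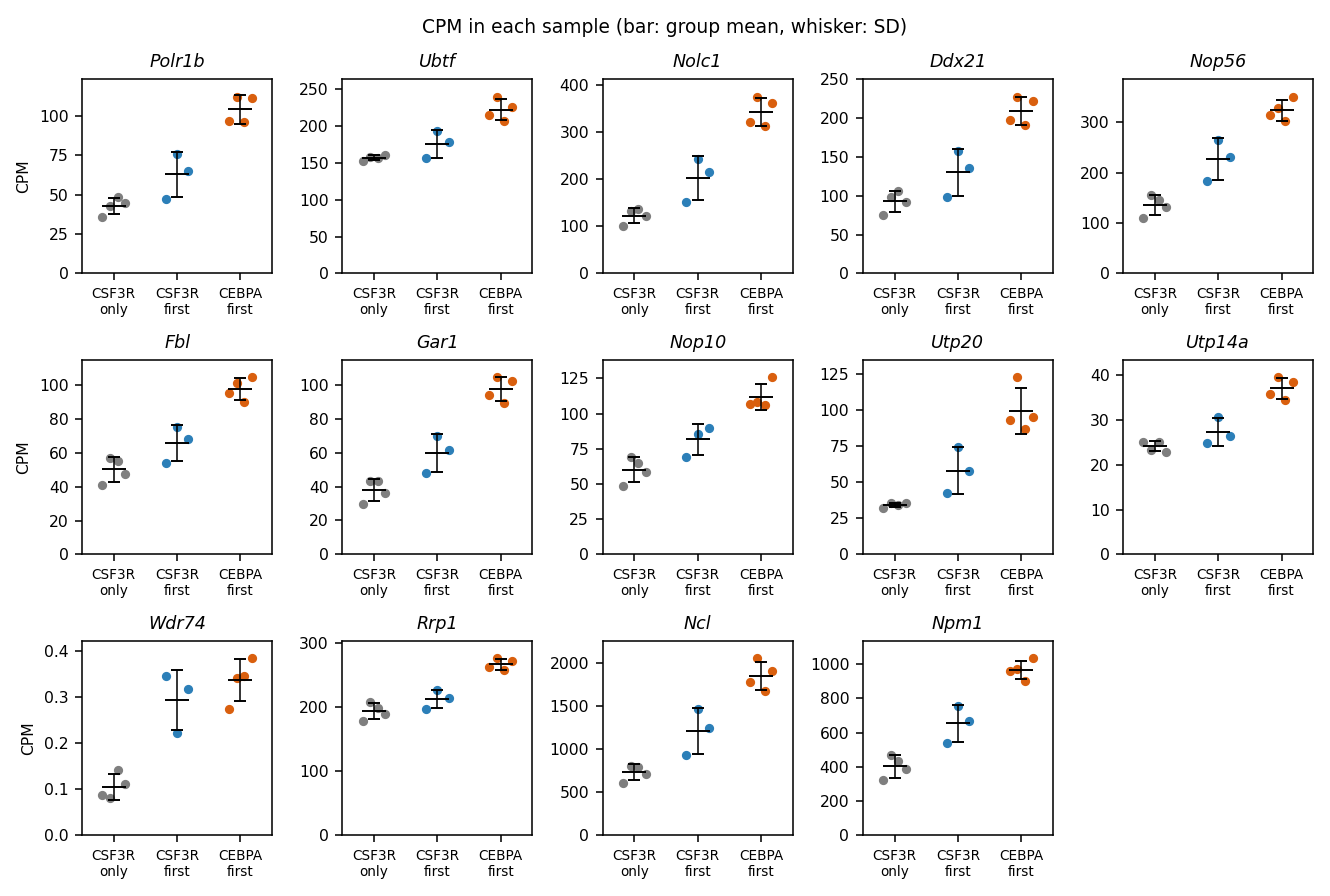
CPM in each sample (points) for 14 members, with the mean and SD of each group, on linear axes that start at 0. CEBPA-first is highest in each panel, with overlap between CEBPA-first and CSF3R-first only for Wdr74, whose axis ends below 0.5 CPM.

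The box C/D snoRNP proteins belong to particles most of which methylate ribosomal RNA, at sites chosen by the RNA of the particle. All 4 members rose in each of the 3 pairwise comparisons. Nop56 (chr2:130274430-130279313, plus strand), a core scaffold protein whose gene contains 5 small nucleolar RNA genes, was at 110.3, 155, 146 and 131 CPM in CSF3R-only, 183, 265 and 231 CPM in CSF3R-first and 313.6, 328, 301 and 350.5 CPM in CEBPA-first samples. The groups were fully separate. Its log2 fold change was 1.25 ± 0.12 in CEBPA-first against CSF3R-only, 0.51 ± 0.13 against CSF3R-first and 0.74 ± 0.13 in CSF3R-first against CSF3R-only (edgeR adjusted p = 9.8e-07, 0.0060 and 0.00079). Near-identical copies cover 25.2% of its transcript.

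Fbl (chr7:28169710-28179269, plus strand), fibrillarin, is the methyltransferase of these particles. It was at 41.0, 56.9, 55.1 and 47.6 CPM in CSF3R-only, 54.1, 75.2 and 68.3 CPM in CSF3R-first and 95.4, 101, 90.0 and 104 CPM in CEBPA-first samples. CSF3R-first A was inside the CSF3R-only range. The log2 fold change was 0.96 ± 0.11 against CSF3R-only and 0.57 ± 0.12 against CSF3R-first (edgeR adjusted p = 6.0e-06 and 0.0025). In CSF3R-first against CSF3R-only it was 0.39 ± 0.12 (adjusted p = 0.020), a call that was lost without any one of 4 samples (CSF3R-only A or D, CSF3R-first B or C, adjusted p = 0.052 to 0.11). Nop58, the partner of Nop56, and Rrp9, which binds the box C/D RNA used for early cleavage, rose by 1.21 ± 0.14 and 1.09 ± 0.14 in CEBPA-first against CSF3R-only.

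The box H/ACA snoRNP has 4 core proteins and converts uridine to pseudouridine. All 4 rose in each pairwise comparison. Between CEBPA-first and CSF3R-only their log2 fold changes were 1.35 ± 0.13 for Gar1, 1.33 ± 0.13 for Dkc1, 1.05 ± 0.11 for Nhp2 and 0.89 ± 0.11 for Nop10. Dkc1, dyskerin, is the enzyme of the complex, and its gene holds 1 small nucleolar RNA gene. Gar1 (chr3:129824912-129831396, minus strand) was at 29.8, 43.2, 43.2 and 36.2 CPM in CSF3R-only, 48.0, 69.8 and 61.8 CPM in CSF3R-first and 93.8, 104, 89.4 and 102 CPM in CEBPA-first samples. Nop10 (chr2:112261926-112263269, plus strand) was at 48.9, 69.3, 64.9 and 58.2 CPM in CSF3R-only, 69.5, 85.7 and 89.9 CPM in CSF3R-first and 107, 108, 106 and 126 CPM in CEBPA-first samples. For both genes each group lay above the one before, with Nop10 in CSF3R-first A only just above the highest CSF3R-only sample. On the scale from CSF3R-only to CEBPA-first, Nhp2 in CSF3R-first lay nearest to CEBPA-first of the 43 (log2 fold change 0.36 ± 0.12 in CEBPA-first against CSF3R-first, edgeR adjusted p = 0.023, against 0.68 ± 0.12 in CSF3R-first against CSF3R-only, adjusted p = 0.00077), and its call between CEBPA-first and CSF3R-first was lost without CSF3R-first A (0.28, adjusted p = 0.090).

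The 14 members of the small subunit pathway were all called higher in CEBPA-first against CSF3R-only (median log2 fold change 1.06) and against CSF3R-first (0.57). In CSF3R-first against CSF3R-only all 14 rose (0.47) and 13 were called higher. Over all tested genes, 35.4%, 24.0% and 21.6% were called higher in these comparisons. Utp20 (chr10:88746607-88826804, minus strand), a large scaffold of the small subunit processome and a member with CACGTG near its start, changed most. It was at 32.5, 35.7, 34.1 and 35.3 CPM in CSF3R-only, 42.3, 74.4 and 57.6 CPM in CSF3R-first and 93.0, 123, 87.1 and 94.9 CPM in CEBPA-first samples. The CSF3R-only samples differed little, the CSF3R-first samples spread widely, and no groups overlapped. Its log2 fold change was 1.53 ± 0.15 in CEBPA-first against CSF3R-only (2.89-fold, edgeR adjusted p = 1.0e-06), 0.77 ± 0.16 against CSF3R-first (adjusted p = 0.0018) and 0.76 ± 0.16 in CSF3R-first against CSF3R-only (adjusted p = 0.0023).

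Utp14a (chrX:48256862-48282453, plus strand), which activates a helicase of the processome, changed least. It was at 25.0, 23.4, 25.1 and 22.9 CPM in CSF3R-only, 24.8, 30.7 and 26.5 CPM in CSF3R-first and 35.8, 39.5, 34.4 and 38.5 CPM in CEBPA-first samples. CEBPA-first stood apart while CSF3R-first A and CSF3R-only overlapped. Its log2 fold change was 0.62 ± 0.08 and 0.44 ± 0.08 against CSF3R-only and CSF3R-first (edgeR adjusted p = 8.3e-06 and 0.0010), and 0.18 ± 0.08 in CSF3R-first against CSF3R-only (adjusted p = 0.094, and 0.027 without CSF3R-first A). Of its exon length, 11.5% overlaps another gene, and near-identical copies cover 16% of its transcript.

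The other members of this pathway, in CEBPA-first against CSF3R-only, had log2 fold changes from 0.78 ± 0.09 for Bysl to 1.30 ± 0.13 for Wdr43. Heatr1, Utp15, Wdr43 and Wdr75 belong to the complex that joins the earliest part of the precursor and couples to its transcription. They rose by 1.13 ± 0.09, 1.02 ± 0.11, 1.30 ± 0.13 and 1.18 ± 0.12. Pwp2, a scaffold of the next complex to join, rose by 1.22 ± 0.14, and Nop14 and its partner Noc4l by 0.97 ± 0.12 and 0.88 ± 0.10. Rrp12, which helps export, rose by 1.27 ± 0.14 and the helicase Ddx10 by 0.92 ± 0.11. The late factors Pno1, Ltv1 and Bysl, which act on the particle as it is trimmed and released, rose by 1.10 ± 0.11, 0.83 ± 0.09 and 0.78 ± 0.09. All of these were also called in both other comparisons.

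In the large subunit pathway, the 13 members other than Wdr74 were all called higher in CEBPA-first against CSF3R-only (median log2 fold change 1.10). They were also all called higher against CSF3R-first (0.59). In CSF3R-first against CSF3R-only all 13 rose (0.58) and 12 were called higher. Over all tested genes, 35.4%, 24.0% and 21.6% were called higher in these comparisons. Pes1, Bop1 and Wdr12 form a complex needed to process the large subunit RNA. Their log2 fold changes in CEBPA-first against CSF3R-only were 0.82 ± 0.08, 0.95 ± 0.10 and 1.33 ± 0.13; the differences among these partners were not tested. Near-identical copies cover 15.7% of the Wdr12 transcript. Grwd1, a histone-binding assembly factor, rose by 1.35 ± 0.13. Nop16 and the GTPase Gnl3, nucleostemin, rose by 1.23 ± 0.10 and 1.18 ± 0.14. Rrs1, which brings the 5S particle to the precursor, rose by 1.19 ± 0.12, Noc3l by 1.18 ± 0.15, the methyltransferase Nop2 by 1.10 ± 0.12 and Nip7 by 0.84 ± 0.09. Mrto4, a factor that holds the place of a stalk protein, rose by 1.04 ± 0.11, and 59% of its transcript has near-identical copies.

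Rrp1 and Rrp1b are related proteins of the large subunit precursor. Rrp1 (chr10:78400384-78413043, minus strand) changed least of all 44 members in CEBPA-first against CSF3R-only. It was at 179, 208, 199 and 190.2 CPM in CSF3R-only, 198, 227 and 215 CPM in CSF3R-first and 263, 276, 258 and 272 CPM in CEBPA-first samples. CEBPA-first was separate from both groups, and CSF3R-first A and CSF3R-only overlapped. Its log2 fold change was 0.46 ± 0.06 against CSF3R-only (edgeR adjusted p = 2.2e-05), 0.33 ± 0.07 against CSF3R-first (adjusted p = 0.0022) and 0.14 ± 0.07 in CSF3R-first against CSF3R-only (adjusted p = 0.12, and 0.043 without CSF3R-first A). Rrp1b rose by 1.09 ± 0.10, 0.44 ± 0.11 and 0.65 ± 0.11 in the same comparisons. The log2 ratio of Rrp1b to Rrp1 averaged -1.49 ± 0.08 over CSF3R-only, -0.99 ± 0.16 over CSF3R-first and -0.86 ± 0.05 over CEBPA-first samples (mean ± SD), a ratio chosen after its values were seen.

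Wdr74 (chr19:8735827-8740624, plus strand), a factor of the large subunit precursor, stood apart from the other 43 members in level and pattern. It had 4, 4, 7 and 7 counts in CSF3R-only samples, 17, 11 and 20 counts in CSF3R-first samples and 16, 20, 18 and 30 counts in CEBPA-first samples, which is 0.0801 to 0.141, 0.221 to 0.345 and 0.274 to 0.383 CPM. The limit that a count of 0 allows (3 counts) is 0.0383 to 0.0648 CPM in these libraries, and covers counting error only. Both groups with mutant CEBPA lay above CSF3R-only, and they overlapped with each other. The fitted log2 difference was 1.66 ± 0.30 between CEBPA-first and CSF3R-only and 1.47 ± 0.32 between CSF3R-first and CSF3R-only, given with no test because the CSF3R-only counts alone would not have passed the filter. Between CEBPA-first and CSF3R-first it was 0.19 ± 0.28 (edgeR adjusted p = 0.61). Per kilobase of exon, its CEBPA-first level of 0.18 CPM compares with 6.92 CPM for Polr1a, the next lowest member. Its exons overlap no other gene and hold no near-identical copy in the annotation used here, and how the authors' counting treated its transcripts is not given, so its level is less certain.

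For the 13 members given by sample other than Wdr74, the two-sided exact permutation test of mean log2 CPM gave p = 0.0286 in CEBPA-first against CSF3R-only, the smallest value 4 against 4 samples can give. Against CSF3R-first it gave the same value for each of the 13, which is also the smallest that 4 against 3 samples can give, and 0.400 for Wdr74. In CSF3R-first against CSF3R-only it gave 0.0286 for Ncl, Npm1, Nolc1, Nop56, Gar1 and Utp20, 0.0571 for Polr1b and Nop10, 0.0857 for Utp14a, 0.114 for Ubtf and 0.143 for Ddx21, Fbl and Rrp1.

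Most genes of the same pathway outside the 44 were also called higher, except host genes of small nucleolar RNAs in CEBPA-first against CSF3R-first. Over all tested genes, 35.4% were called higher in CEBPA-first against CSF3R-only, 24.0% against CSF3R-first and 21.6% in CSF3R-first against CSF3R-only. Differences between these lists and the members were not tested. Of 42 other small subunit factors, 41 were called higher in CEBPA-first against CSF3R-only, 36 against CSF3R-first and 35 in CSF3R-first against CSF3R-only (median log2 fold changes 0.82, 0.48 and 0.37). Of 44 other large subunit factors, 42, 40 and 35 were called higher (0.90, 0.46 and 0.42). Of 12 other RNA polymerase I genes the counts were 10, 10 and 8 (0.64, 0.30 and 0.34), and of 13 tested genes of the RNA exosome, which trims the precursor, they were 12, 11 and 10 (0.80, 0.33 and 0.40). Host genes of small nucleolar RNAs gave 9, 4 and 8 of 10 (0.91, 0.36 and 0.52). None of these genes was called lower. Those not called in CEBPA-first against CSF3R-only were Rrp36, Nop53, Sbds, Taf1b, Ttf1, C1d and Snhg20, with log2 fold changes between -0.01 and 0.12.

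Among these other genes, Rsl24d1, Tsr1 and Nat10 changed most in CEBPA-first against CSF3R-only. Rsl24d1, a placeholder protein of the large subunit, averaged 50.3 ± 6.89 CPM in CSF3R-only, 89.0 ± 10.5 CPM in CSF3R-first and 139 ± 5.99 CPM in CEBPA-first (mean ± SD), with a log2 fold change of 1.46 ± 0.10 (SE, edgeR adjusted p = 4.2e-08). Tsr1, a GTPase-like late factor of the small subunit, changed by 1.35 ± 0.13 (adjusted p = 9.8e-07) and the RNA acetyltransferase Nat10 by 1.26 ± 0.15 (adjusted p = 6.8e-06). The called genes with the smallest changes were Polr1h, Exosc4 and Zfp622, at 0.25 ± 0.06, 0.25 ± 0.07 and 0.23 ± 0.05.

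Ribosomal protein genes, whose products the assembly factors handle, were counted in the same comparisons. Of 84 tested cytosolic ribosomal protein genes, 78 were called higher in CEBPA-first against CSF3R-only (median log2 fold change 0.55) and 75 in CSF3R-first against CSF3R-only (0.39). In CEBPA-first against CSF3R-first 13 were called higher (0.15), which is 15.5% of the list and below the 24.0% of all tested genes. In the first 2 comparisons, 35.4% and 21.6% of all tested genes were called higher. One gene, Rpl3l, a muscle-type paralog singled out after its values were seen, was called lower in all 3, by -2.09 ± 0.23 between CEBPA-first and CSF3R-only (log2, edgeR adjusted p = 2.7e-06). Of 76 tested mitochondrial ribosomal protein genes, 71, 59 and 41 were called higher in the same order of comparisons, and 2, 1 and 2 lower. Mrpl52 was the one called lower in all of them (-1.16 ± 0.10 in CEBPA-first against CSF3R-only), and Mrpl33 was the other in CEBPA-first against CSF3R-only (-0.18 ± 0.07) and against CSF3R-first. Whether the members' change between CEBPA-first and CSF3R-first differs from that of ribosomal protein genes was not tested.

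**Figure D5:**
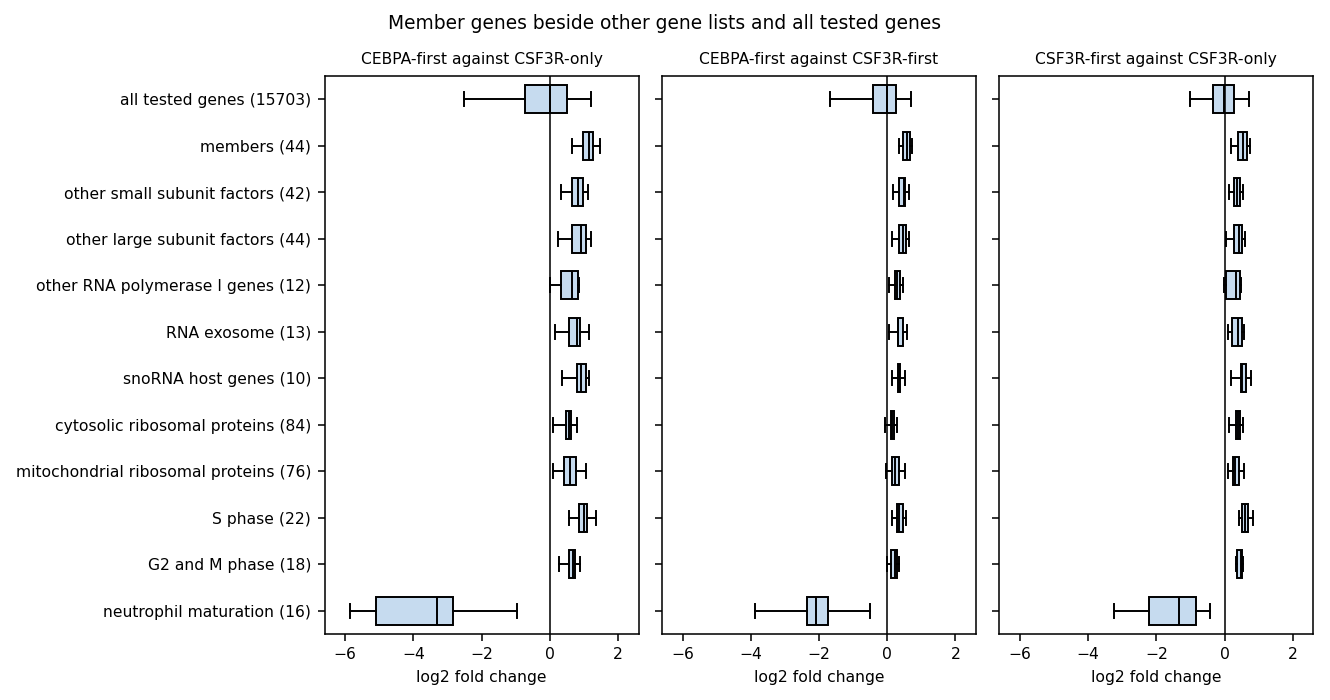
log2 fold changes of the member genes beside other gene lists and all tested genes in the 3 pairwise comparisons (line: median, box: quartiles, whiskers: 5th and 95th percentile; number of tested genes in brackets). The members lie to the right of 0 in each panel, cytosolic ribosomal proteins lie near 0 in CEBPA-first against CSF3R-first, and neutrophil maturation genes lie to the left.

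Most of the listed cell cycle genes were also called higher. Over all tested genes the shares called higher were 35.4% in CEBPA-first against CSF3R-only, 24.0% against CSF3R-first and 21.6% in CSF3R-first against CSF3R-only. Of 22 S phase genes, 21 were called higher in CEBPA-first against CSF3R-only, 17 against CSF3R-first and 21 in CSF3R-first against CSF3R-only (median log2 fold changes 0.99, 0.36 and 0.61). Of 18 genes of G2 and M phase, 18, 10 and 18 were called higher (0.68, 0.23 and 0.47). The summed S phase level was 2672 to 3372.5 CPM in CSF3R-only, 4159 to 4923 CPM in CSF3R-first and 5452 to 6308 CPM in CEBPA-first samples. The part of cell division in the members' levels was not tested.

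Myc, the transcription factor best known for raising ribosome biogenesis genes, moved in the same order. It was at 120 to 182 CPM in CSF3R-only (158 ± 27.7, mean ± SD), 232 to 318 CPM in CSF3R-first (283 ± 45.1) and 445.5 to 480.0 CPM in CEBPA-first samples (465 ± 16.3), with no overlap. Its log2 fold change was 1.56 ± 0.13 in CEBPA-first against CSF3R-only, 0.72 ± 0.13 against CSF3R-first and 0.84 ± 0.13 in CSF3R-first against CSF3R-only (edgeR adjusted p = 2.3e-07, 0.0010 and 0.00044). Of the 9 genes of MYC and its partners, 2 were called higher and 4 lower in CEBPA-first against CSF3R-only. Over all tested genes, 35.4% were called higher and 36.6% lower. Besides Myc, the gene of this list called higher was Mxd3 (0.28 ± 0.09). Those called lower were Mxd1 (-1.81 ± 0.13), Mxi1 (-1.12 ± 0.14), Mxd4 (-0.89 ± 0.11) and Mnt (-0.42 ± 0.08). Mxd3 and the 4 called lower all encode proteins that compete with MYC for its partner MAX, so these went both ways. Max gave 0.02 ± 0.08, which did not pass (adjusted p = 0.80). Mycn was called lower in CSF3R-first against CSF3R-only (-0.52 ± 0.19, edgeR adjusted p = 0.046) and higher in CEBPA-first against CSF3R-first (0.63 ± 0.19, adjusted p = 0.017). Between CEBPA-first and CSF3R-only, Mycn did not pass (0.11 ± 0.18, adjusted p = 0.58). The part of MYC in the members' levels was not tested.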

How the data were processed

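Lineage-negative marrow of 3 groups was sequenced as single-end RNA-seq. Per the study's methods, the authors trimmed reads with Trimmomatic and aligned them with STAR; the submitters' processing notes name STAR, DESeq2 and mm10, and the counting tool, its annotation and the use of strand are not given in the sources used here. The authors deposited whole-number counts per gene, not normalized, for 11 samples. Counts were analysed with edgeR 4.0.16 (limma 3.58.1, R 4.3.3): filterByExpr, TMM, and the quasi-likelihood test in 1 fit of 3 groups without covariates, Benjamini-Hochberg adjusted over 15703 genes, with calls at 0.05. A standard error is the log2 fold change over the square root of F. log2 CPM used a prior count of 2. Positions and lengths come from an annotation of GRCm38, promoters from RefSeq, and near-identical stretches from blastn 2.17.0+.

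Samples were given for the members with the largest and smallest change of each role in CEBPA-first against CSF3R-only, any called with the opposite sign or against the midpoint (none), and Ncl, Npm1, Fbl and Ubtf; of the other ribosome biogenesis lists, the 3 largest and 3 smallest called changes, and Myc. Members and lists were chosen with earlier results of these data known. Alternatives were DESeq2 1.42.0, other normalizations, filters and thresholds, a replicate block, and each sample left out. The methods were tested on simulated counts. Figures used matplotlib 3.10.9.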

Additional observations from a re-analysis of the deposited data

Results flagged for a closer look

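In 88 groups of 4 samples (44 members in CSF3R-only and in CEBPA-first), 3 had 1 sample far from the others by Dixon's test at its 95% critical value, where chance alone flags about 1 group in 20. Tcof1 was at 73.0 CPM in CSF3R-only A and at 85.0 to 85.1 CPM in the other samples of that group. Nop10 was at 125.7 CPM in CEBPA-first D, above the 106 to 108 CPM of the others. Rrp12 was at 106.2 CPM in CEBPA-first B, above the 80.2 to 84.4 CPM of the others.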

How the results depend on the processing

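Calls here are counted over the 43 members other than Wdr74 (a choice made after seeing the data) unless 44 are named. All 43 stayed called in CEBPA-first against CSF3R-only under every alternative at an adjusted p of 0.05. With a log2 fold change over 1 also required, 30 passed in that comparison, 0 between CEBPA-first and CSF3R-first and 0 between CSF3R-first and CSF3R-only, where Wdr74 alone would make 1 of 44. Testing for a change beyond 1.2-fold (glmTreat) left 34 between CEBPA-first and CSF3R-first and 22 in CSF3R-first against CSF3R-only (23 of 44). Leaving out each sample gave 43 to 43 calls in CEBPA-first against CSF3R-only (44 to 44 of 44), 41 to 43 between CEBPA-first and CSF3R-first, with Nhp2 and Mrto4 lost without CSF3R-first A, 26 to 43 in CSF3R-first against CSF3R-only (27 to 44 of 44), and 0 to 1 against the midpoint. DESeq2 gave 43, 43, 39 and 0. A replicate block on the labels' letters gave 43, 43, 40 and 0 calls. Same-letter samples correlated at -0.107 to 0.362 in their deviations, and samples with different letters at -0.341 to 0.384. All same-letter correlations were positive except that of CEBPA-first C with CSF3R-first C. The labels do not say what the letters stand for, and the main fit left them out. Over all tested genes, there were 11314 calls between CEBPA-first and CSF3R-only, 7578 between CEBPA-first and CSF3R-first, 6703 between CSF3R-first and CSF3R-only and 558 against the midpoint; with a log2 fold change over 1 they numbered 4244, 2016, 1045 and 223, glmTreat gave 3853, 2966 and 232 in the last 3, and DESeq2 gave 903 against the midpoint. Scaling by total counts moved the median of all genes by 0.13 on the log2 scale in CEBPA-first against CSF3R-only and the members' median to 1.28 over all 44; all 43, Ubtf, Polr1a, Utp14a and Rrp1 included, were then called in CSF3R-first against CSF3R-only. For the 14 members given by sample, over the 3 pairwise comparisons and leaving aside the rule on log2 fold change, 904 values kept their direction and side of the threshold, 11 lost the threshold, 6 gained it and 0 reversed. Wdr74 rests on 4 to 30 counts a sample.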
